A study of Mus musculus with 6 samples.

Results

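The injury-induced and outer root sheath keratins Krt6a, Krt6b, Krt16, Krt17 and Krt75 were followed in tail epidermis of aged and young mice. They were chosen by name, as the probes whose RefSeq accession belongs to 1 of these 5 genes, and 6 of the 55681 probes for mouse transcripts met this rule. Krt6b had 2 probes and each other gene had 1, so these were 5 of 21368 named genes, all 5 among the 14145 tested. The aged group held 3 samples, replicate 1 from a mouse of 22 months and replicates 2 and 3 from mice of 25 months, and the young group held 3 samples from mice of 8 weeks. All were wild type C57BL/6, and the labels name no transgene or agent. Tail skin was soaked in EDTA to lift the epidermis from the dermis, and the RNA was amplified before labelling, per the labels' protocols. The samples therefore hold interfollicular epidermis together with whatever part of the hair follicles came away with it. Neither sex nor the number of animals behind a sample is in the labels. The p-values therefore cover the spread between these samples, which may be partly technical.

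Keratins are the filament proteins of epithelial cells, and each filament is built from a type I and a type II partner. Krt6a, Krt6b and Krt75 are type II keratins and Krt16 and Krt17 are type I keratins. In healthy haired skin the Krt6, Krt16 and Krt17 proteins are known from the outer root sheath of the follicle and its innermost layer, the companion layer. After wounding, and in inflamed or hyperproliferative epidermis, keratinocytes between the follicles switch them on, which is why they are called stress keratins. Krt75 is a keratin of the companion layer. In the RefSeq gene table of the GRCm38.p6 assembly, Krt16 and Krt17 are neighbours on chromosome 11. Krt75, Krt6b and Krt6a lie in 1 stretch of chromosome 15, Krt6b next to Krt6a, with 5 other gene models between Krt75 and Krt6b. Among those are the transcribed pseudogenes Gm5476, Gm5477 and Gm5478. Krt6a and Krt6b are close copies of each other, so their probes may take up transcripts of each other or of these neighbours.

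Each value is a probe's log2 signal scaled to its own array, so that 0 is the 75th percentile of the array and 1 unit is a 2-fold step. They show how a probe differs between arrays and do not rank 1 keratin above another. All 6 probes were well above background on all 6 arrays and none was saturated. Across the series, 50.9% to 55.1% of spots were well above background on an array. Of 14145 genes tested, 11 passed a limma adjusted p of 0.05, or 0.0778% (0.0424% higher and 0.0353% lower). A fit blocked on the replicate numbers called 0, with 2714 at an unadjusted p under 0.05. None of the 5 keratins was among the 11. Without aged replicate 1 the count was 810 genes, or 5.73%, and without the replicates numbered 1 of both groups it was 215, or 1.52%. The tissue label fits its markers, since 10 of 10 keratinocyte markers were well above background on every array. Their summed level was 3090 to 3583 times the 75th percentile on aged arrays and 3170 to 3311 times on young arrays. Krt5, Krt14 and Krt10, keratins of the basal layer and of the layers above it, differed by 0.12 ± 0.11, 0.26 ± 0.13 and 0.02 ± 0.11 log2 units (aged minus young, SE). Their limma adjusted p were 0.557, 0.336 and 0.950. Krt1, the partner of Krt10, differed by -0.43 ± 0.31 (adjusted p = 0.486).

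The 5 genes did not share 1 pattern. Krt6a was lower on every aged array, while Krt17 and Krt75 were lower on the aged arrays of 25 months and near the young level on the array of 22 months. Krt16 stood below all young arrays at 22 months and above them all at 25 months. The 2 probes of Krt6b disagreed with each other. Differences of the first Krt6b probe, Krt6a, Krt17 and Krt75 were below 0 and that of Krt16 was near 0, so 4 of 5 genes were lower, against 36.4% of all genes tested. The median difference over the 5 genes was -0.58 log2 units, against 0.09 over all genes. Aged and young arrays did not overlap for 1 of the 5 genes, against 27.0% of all genes in either direction. An unadjusted p under 0.05 was reached by 3 of the 5, all lower, against 17.7% of all genes in either direction and 6.32% in that direction. For any single value, an exact permutation test of 3 against 3 arrays reaches 0.1 at the least.

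**Figure D1:**
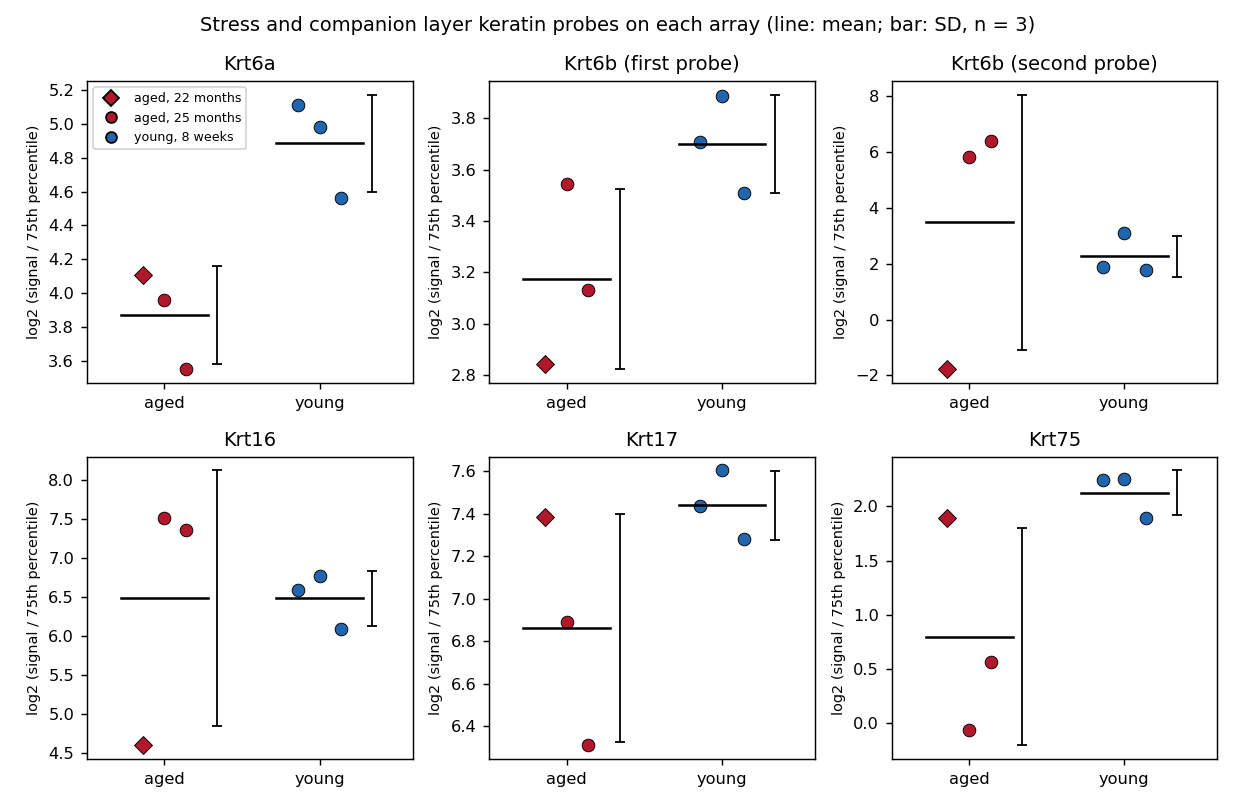
Each panel shows 1 probe, with aged arrays on the left and young arrays on the right. The vertical axis is log2 of the signal over the array's 75th percentile and has its own range in each panel, the line is the group mean and the bar the SD (n = 3). The diamond is the aged array of 22 months. It lies apart from the arrays of 25 months for Krt16 and for the second Krt6b probe, at 4.60 and -1.79.

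Krt6a, the type II keratin that is the main Krt6 of stressed mouse keratinocytes, measured 4.11, 3.96 and 3.55 log2 units on aged replicates 1, 2 and 3. On young replicates 1, 2 and 3 it measured 5.11, 4.98 and 4.56. All 3 aged values lay below the lowest young value, a separation in this direction that 7.49% of all genes showed. The group means were 3.87 ± 0.29 in aged and 4.89 ± 0.29 in young epidermis (SD, n = 3 each). Krt6a was thus 2.02-fold lower in aged epidermis, a difference of -1.01 ± 0.21 log2 units (SE) with a 95% interval of -1.53 to -0.50. It missed the threshold over all features (limma adjusted p = 0.131, unadjusted p = 0.00292). With any 1 array left out, the difference lay between -1.17 and -0.85. Without aged replicate 1 it was -1.13 and just inside the threshold (adjusted p = 0.0492), and without the replicates numbered 1 of both groups it was -1.02 (adjusted p = 0.104). Between samples of the same replicate number Krt6a differed by -1.01, -1.02 and -1.01 log2 units (aged minus young, numbers 1, 2 and 3). The labels do not say whether the numbers mark pairs, so these values and the blocked fit rest on a numbering that may be arbitrary. Over all features aged replicate 3 correlated more with young replicate 2, at 0.286, than with young replicate 3, at 0.102. Blocked on the replicate numbers, the Krt6a difference was -1.01 ± 0.11 (limma adjusted p = 0.156). With the row of the array on its slide as a block, which rests on 1 young array, it was -0.69 ± 0.27 (adjusted p = 0.696). The spread within the aged group, 0.56 log2 units from lowest to highest, was like that within the young group, 0.55.

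Among 5 keratins, Krt6a was the gene whose aged arrays agreed best on a deviation from the young mean. That deviation was -0.78, -0.93 and -1.34 log2 units on aged replicates 1, 2 and 3. The gene with the most similar profile over the 6 arrays was Gm5476, the transcribed pseudogene next to Krt75 in the same cluster. The measure was the root mean square difference between profiles, each centred on its own mean, over 6 arrays and among named genes well above background on all of them. For Gm5476 it was 0.06 log2 units. The probe of Gm5476 measured 1.44, 1.31 and 0.98 on the aged arrays, against 2.46, 2.21 and 1.97 on the young arrays, a difference of -0.97 ± 0.19 (adjusted p = 0.118). Whether it reads its own transcript or that of Krt6a was not tested, since probe sequences were not used here. The next nearest profiles were those of Mitf, the transcription factor of pigment cells, at 0.12, and Dsc2, a desmosomal cadherin, at 0.16. Of 8 melanocyte markers 8 were lower in aged epidermis, against 36.4% of all genes. Their summed level was 14.0, 6.12 and 5.21 times the 75th percentile on aged replicates 1, 2 and 3. On young arrays it was 15.4 to 19.4 times. Relative to the young mean, the median melanocyte marker stood at -0.15, -1.70 and -2.08 on aged replicates 1, 2 and 3. On aged replicate 1, 4 of the 8 lay below every young array, a count for which the share over all genes was not taken. The part of these markers in the Krt6a difference was not tested.

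Krt6b, the second mouse Krt6 gene, gave 1 answer by each of its probes. The first probe (A_51_P126275) represents the gene because its mean log2 value was the higher of the 2, at 3.44 against 2.87. By mean processed signal the order was the other way, 2992 for the first and 6612 for the second, and the sign given for Krt6b depends on this choice. It measured 2.84, 3.54 and 3.13 log2 units on aged replicates 1, 2 and 3, against 3.71, 3.89 and 3.51 on young replicates 1, 2 and 3. Aged replicate 2 reached into the young range and the other aged arrays lay below it. The means were 3.17 ± 0.35 in aged and 3.70 ± 0.19 in young epidermis (SD), and the difference was -0.53 ± 0.21 (SE, 95% interval -1.04 to -0.02, limma adjusted p = 0.262). Array weights gave -0.24, and blocking on the slide row gave -0.33. The second probe (A_66_P101935) measured -1.79, 5.83 and 6.41 on aged replicates 1, 2 and 3, against 1.90, 3.11 and 1.78 on young replicates 1, 2 and 3. In units of processed signal these values were 86.8, 15870 and 19519 on the aged arrays and 1042, 2246 and 909 on the young arrays. The aged array of 22 months was the dimmest of all 6, and both aged arrays of 25 months were brighter than every young array. From the lowest to the highest aged array the second probe spanned 294-fold, against 2.50-fold among young arrays.

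The fit over all probes that passed the filter called 17 of 29519 probes, or 0.0576%, and the second Krt6b probe was not among them. Its difference was 1.22 ± 2.15 log2 units (adjusted p = 0.797). The value turned on aged replicate 1, and without it the difference was 3.85 ± 0.44 (adjusted p = 0.0136), and without the replicates numbered 1 of both groups 3.67 ± 0.50 (adjusted p = 0.0640). Without aged replicate 3 it was -0.24. The second probe minus the first gave -4.64, 2.28 and 3.27 on aged replicates 1, 2 and 3, against -1.81, -0.78 and -1.72 on young replicates. The range of that difference over the 6 arrays was 7.91 log2 units. Among 3683 genes with at least 2 probes past the filter, the median range between the 2 brightest was 0.53, and that of Krt6b was the largest, ahead of Icmt at 6.07. A level of Krt6b cannot be given from these arrays without saying which probe it comes from.

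**Figure D2:**
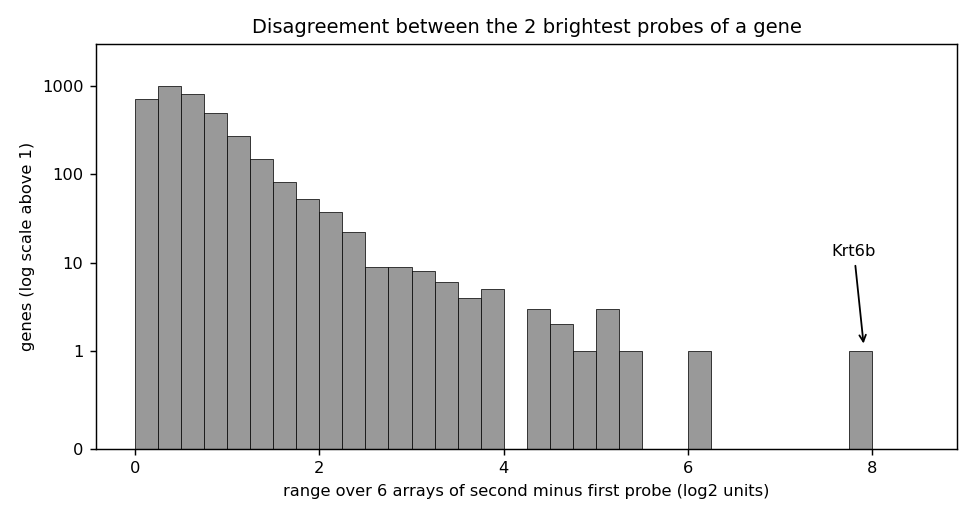
The horizontal axis is the range over the 6 arrays of the difference between the 2 brightest probes of a gene, in log2 units, and the bars count genes on an axis that is logarithmic above 1. Of 3683 genes Krt6b lies farthest to the right, at 7.91.

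The 3 genes whose profiles came nearest to the second Krt6b probe were S100a9, S100a8 and Sprr2e, at root mean square differences of 0.62, 0.71 and 1.02. S100a8 and S100a9 encode the calprotectin subunits, alarmins that stressed keratinocytes and neutrophils both make, and Sprr2e is a small proline-rich precursor of the cornified envelope. S100a9 measured -1.11, 7.17 and 6.73 on aged replicates 1, 2 and 3, against 2.39, 2.67 and 3.13 on young replicates 1, 2 and 3. S100a8 measured -1.82, 6.48 and 5.89 on the aged arrays, against 2.00, 1.50 and 1.90 on the young arrays. Both were thus lowest on the aged array of 22 months and highest on those of 25 months, as the second Krt6b probe was. The next in order, chosen after its values were seen, was Gm5478, the transcribed pseudogene beside Krt6b in the cluster, at 1.05. It measured -2.31, 2.27 and 2.85 on the aged arrays and -0.83, -0.21 and -0.75 on the young arrays. The first Krt6b probe had other neighbours, Prdm15, Slc34a2 and Mir17hg, each at 0.10.

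Krt75, the companion layer keratin, measured 1.90, -0.06 and 0.56 log2 units on aged replicates 1, 2 and 3. On young replicates 1, 2 and 3 it measured 2.24, 2.25 and 1.89. The array of 22 months lay inside the young range, at its lower edge, and both arrays of 25 months lay well below it. The means were 0.80 ± 1.00 in aged and 2.13 ± 0.20 in young epidermis (SD), 2.51-fold lower, and the difference was -1.33 ± 0.48 (SE, 95% interval -2.51 to -0.15). It did not pass (limma adjusted p = 0.240). On the aged arrays of 25 months alone Krt75 was 3.67-fold lower than young and inside the threshold, at -1.88 ± 0.23 (adjusted p = 0.0163), and without the replicates numbered 1 of both groups it was -1.82 ± 0.27 (adjusted p = 0.0669). With the slide row as a block it was -1.09 ± 0.74 (adjusted p = 0.705). In the fit without aged replicate 1, 2 of the 5 keratins passed, Krt6a and Krt75, both lower, and 3.77% of all genes passed in that direction.

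Hair shaft and inner root sheath genes were lowest on the arrays of 25 months in the median, and most of them were lower at 22 months too. All 8 tested inner root sheath genes and all 10 tested hair shaft genes were lower in aged epidermis, against 36.4% of all genes. Their median differences were -3.32 and -3.65 log2 units, with none past the threshold. Relative to the young mean, the median inner root sheath gene stood at -0.86, -3.17 and -5.88 on aged replicates 1, 2 and 3, and the median hair shaft gene at -0.77, -3.34 and -6.66. Krt75 stood at -0.23, -2.19 and -1.56, lowest on aged replicate 2 and not on aged replicate 3. On the array of 22 months Krt75 lay at the lower edge of the young range, at 1.896 against 1.891 on young replicate 3. With quantile scaling it lay below every young array, at 9.96 against 10.03 on young replicate 3, the lowest of them. At 22 months 7 of the 8 inner root sheath genes and 8 of the 10 hair shaft genes lay below every young array. The share over all genes was not counted. Among the wound edge and injury response genes 20 of 26 did so, and among the proliferation genes 0 of 12. When aged replicate 1 was left out, 5 inner root sheath and 7 hair shaft genes passed, all lower, against 3.77% of all genes. Without the replicates numbered 1 of both groups 0 inner root sheath and 2 hair shaft genes passed, against 1.07% of all genes lower. In that fit 8 and 10 genes of these lists had an unadjusted p under 0.05 in limma, against 3690 of all 14145 genes in either direction. Krt72, an inner root sheath keratin, differed by -2.90 ± 0.68 and Krt39, a hair keratin, by -1.32 ± 0.18 (adjusted p = 0.149 and 0.0893). Krt39 deviated by -1.51, -1.41 and -1.04 on aged replicates 1, 2 and 3 and so was low at 22 months as well. The part of the hair follicle in the Krt75 difference was not tested, and in bulk tissue fewer cells of a type cannot be told apart from less RNA per cell. The nearest single profiles to Krt75 were those of Arhgap9, Vwf and Morn4, at 0.20, 0.22 and 0.23.

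Genes of follicle stem cells and the outer root sheath, the compartment in which Krt17 and Krt6a are found in unwounded skin, deviated less. Of 12 tested, 10 were lower and 2 higher, against 36.4% of all genes lower, with 0 past the threshold and a median difference of -0.43. Lgr5, a receptor of follicle stem cells, differed by -1.67 ± 0.57, Tbx1 by -0.90 ± 0.40 and the surface protein gene Cd34 by -0.68 ± 0.31, while Plet1 was at 0.79 ± 0.39 (adjusted p = 0.220 to 0.341). Over the list, the median deviation from the young mean was -0.07, -0.35 and -0.97 on aged replicates 1, 2 and 3.

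**Figure D3:**
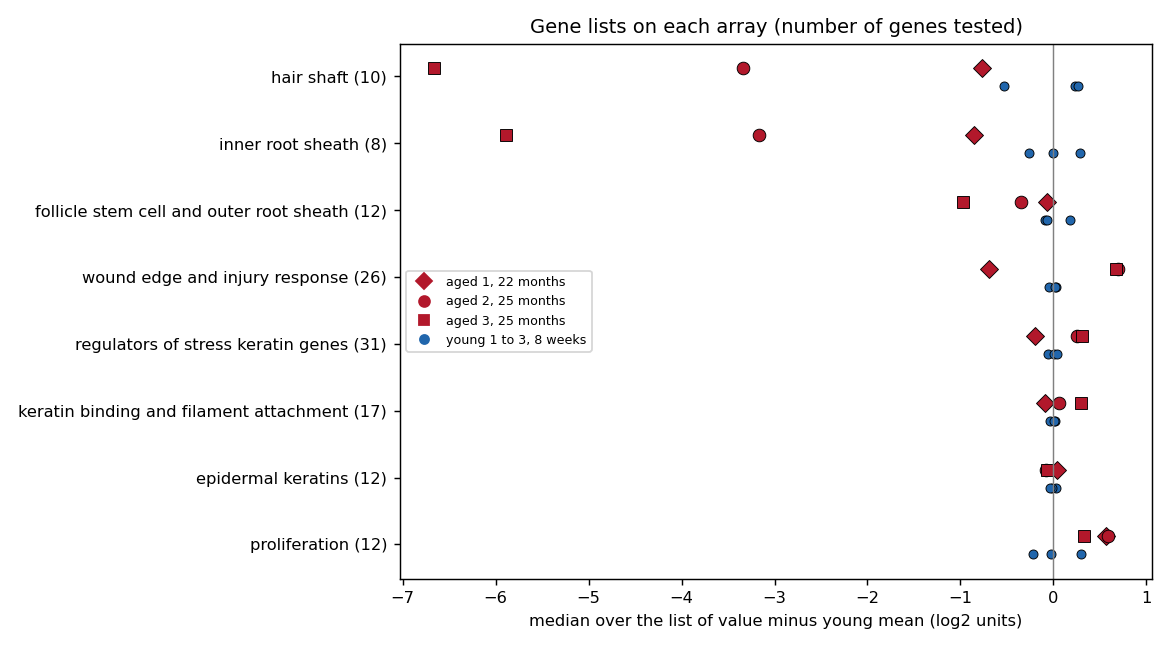
Each row is a gene list with the number of genes tested, and each symbol is 1 array. The horizontal axis is the median over the list of the value minus the young mean, in log2 units. Hair shaft and inner root sheath genes reach -6.66 and -5.88 on aged replicate 3, while wound edge genes lie at -0.69 on the array of 22 months and at 0.70 and 0.67 on those of 25 months.

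Krt16, the type I partner of Krt6 in stressed epidermis, measured 4.60, 7.51 and 7.35 log2 units on aged replicates 1, 2 and 3. On young replicates 1, 2 and 3 it measured 6.60, 6.77 and 6.09. The aged array of 22 months was the lowest of all 6 and the aged arrays of 25 months were the highest, so the young values lay between them. From the aged array of 22 months to the mean of those of 25 months the step was 2.83 log2 units, or 7.11-fold. The aged arrays ranged over 2.91 log2 units and the young arrays over 0.67. A range of at least 2 units among aged arrays was found for 5.20% of all genes. The group means were 6.49 ± 1.64 in aged and 6.48 ± 0.35 in young epidermis (SD), and the difference was 0.00 ± 0.78 (SE, limma adjusted p = 0.999). Its 95% interval of -1.90 to 1.91 leaves room for a change of over 3-fold in either direction, and its sign turned with quantile scaling and with normexp background correction.

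Leaving out aged replicate 1 moved Krt16 to 0.95 ± 0.22 (adjusted p = 0.0800), 1.93-fold higher than young and outside the threshold. Leaving out aged replicate 2 or 3 moved it to -0.51 or -0.43, and array weights to 0.86 ± 0.43 (adjusted p = 0.180). The aged array of 22 months was also 1 of the 2 arrays with Ddx3y, Eif2s3y and Kdm5d, genes of the Y chromosome, above background. The other was young replicate 1, on which Krt16 and the second Krt6b probe had the middle of the 3 young values. Uty, another gene of the Y chromosome, was above background on these 2 arrays and on young replicate 3. On that array Krt16 and the second Krt6b probe had their lowest young values, 6.09 and 1.78. Age in months and Y-linked transcripts cannot be told apart within the aged group, and 1 array at 22 months allows no test.

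The pattern of Krt16 was shared by 7.11% of all genes, taken as both arrays of 25 months above and the array of 22 months below every young array. Of 26 tested wound edge and injury response genes 13 had it, and of 31 regulators of stress keratin genes 11 had it. These counts were made after the pattern had been seen. The regulators with it were Fos, Jun, Junb, Jund and Fosl1, which encode AP-1 transcription factors, the EGF receptor ligands Areg, Ereg and Hbegf, and Cebpa, Klf4 and Tfap2c. Among 12 other epidermal keratins 1 had it, Krt24. It was found in 0 of 8 inner root sheath genes, 0 of 10 hair shaft genes and 0 of 12 genes of the outer root sheath list. A looser pattern, both arrays of 25 months above the 4 others, held for 19.8% of all genes.

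The gene with the profile most like that of Krt16 was Il1f6, which encodes the epidermal cytokine interleukin-36 alpha, at a root mean square difference of 0.19. Il1f6 measured 2.47, 4.76 and 4.85 on aged replicates 1, 2 and 3, against 4.19, 4.20 and 3.60 on young replicates 1, 2 and 3. Asb2 followed at 0.26, and Bcl3, a nuclear regulator of the NF-kappa-B pathway, at 0.32. Bcl3 measured 0.41, 3.52 and 3.16 on the aged arrays and 1.84, 1.92 and 1.85 on the young arrays. All of these genes were lowest at 22 months.

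**Figure D4:**
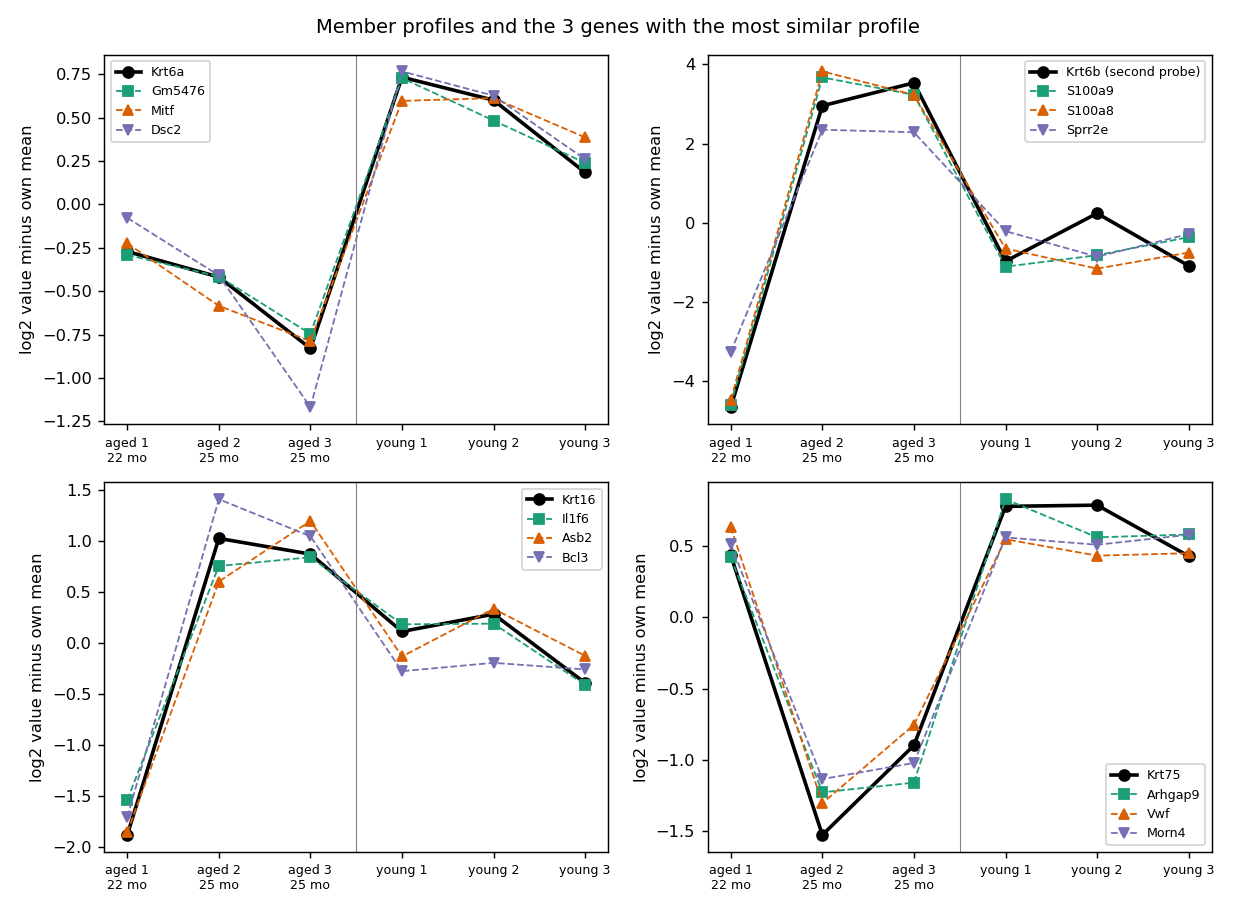
Black lines are 4 of the keratin probes over the 6 arrays and dashed lines the 3 genes with the smallest root mean square difference to each. Values are log2, each profile minus its own mean, and lines only join the points of a gene. The second Krt6b probe runs with S100a9 and S100a8, and Krt16 with Il1f6.

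Krt17, the type I keratin of the outer root sheath that wounding also induces, measured 7.38, 6.89 and 6.31 log2 units on aged replicates 1, 2 and 3. Young replicates 1, 2 and 3 measured 7.44, 7.60 and 7.28. The array of 22 months lay within the young range, and both arrays of 25 months below it. Means were 6.86 ± 0.54 in aged and 7.44 ± 0.16 in young epidermis (SD), a difference of -0.58 ± 0.28 (SE, 95% interval -1.26 to 0.10, limma adjusted p = 0.326). Without aged replicate 1 it was -0.84 ± 0.21 (adjusted p = 0.0911), and without aged replicate 3 it was -0.30. Krt17 and its neighbour Krt16 thus deviated in opposite directions on the arrays of 25 months, by -0.55 and -1.13 for Krt17 and by 1.02 and 0.87 for Krt16. At 22 months they deviated by -0.06 and -1.88. The profiles nearest to Krt17 were those of Zcchc3, Adgrg2 and Ablim3, at 0.06 to 0.07.

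**Figure D5:**
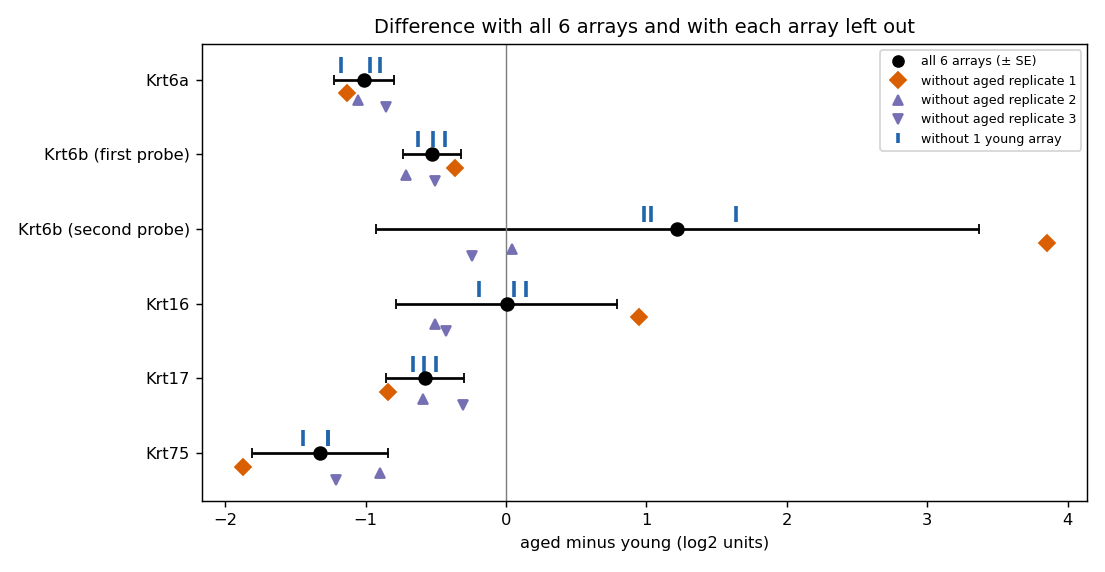
The horizontal axis is the difference aged minus young in log2 units. Black points are the fit with all 6 arrays with its SE, diamonds and triangles leave out 1 aged array, and blue ticks leave out 1 young array. Krt6a stays between -1.17 and -0.85, while Krt16 and the second Krt6b probe lie on both sides of 0.

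Other genes of the injury response gave 0 of 26 past the threshold with all 6 arrays. Of the 26, 17 were higher and 9 lower, near the 36.4% of all genes that were lower. The median difference was 0.17 log2 units against 0.09 over all genes. An unadjusted p under 0.05 in limma was reached by 3, against 17.7% of all genes. Lcn2, an iron-binding antimicrobial protein, differed by 2.13 ± 0.50 and Plau, the urokinase plasminogen activator, by 0.87 ± 0.22 (limma adjusted p = 0.146 and 0.157). Both were higher on all aged than on all young arrays, the array of 22 months included, which sets them apart in pattern from Krt16. The matrix protein gene Tnc differed by -0.87 ± 0.34 and the integrin gene Itga5 by 0.79 ± 0.35. In the fit without aged replicate 1, 5 of the 26 passed, all higher, against 1.96% of all genes in that direction. They were S100a8 at 4.39, S100a9 at 4.22, Slpi, a protease inhibitor, at 2.09, Sprr2d at 1.31 and Sprr2h at 0.76 log2 units. Without the replicates numbered 1 of both groups 4 of the 26 passed, all higher, against 0.452% of all genes.

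S100a8 and S100a9 are also made by neutrophils, so markers of blood cells are given here. The summed level of the 7 neutrophil and macrophage markers measured was 18.2, 105 and 74.8 on aged replicates 1, 2 and 3. On young arrays it was 19.7 to 22.8. S100a8 is 1 of the 7 and made up most of the sum on aged replicates 2 and 3, at 6.48 and 5.89 log2 units. Of the 6 others, Adgre1 and Lyz2 were not well above background on any array, and Mpo was above it on 1 aged and 2 young arrays. Cd68, a lysosomal protein of macrophages, measured 1.39, 1.39 and 1.77 on aged replicates 1, 2 and 3, against 1.13, 0.74 and 0.81 on young replicates 1, 2 and 3. It was higher on all aged arrays, by 0.62 ± 0.17 (limma adjusted p = 0.181). Itgam, an integrin of myeloid cells, differed by -0.30 ± 0.13 (adjusted p = 0.301). Elane, a neutrophil granule gene, measured -0.74, -0.80 and -1.04 on aged replicates 1, 2 and 3, against -1.10 to -0.88 on young arrays. Of the 4 tested genes in the T cell list 1 had the pattern of Krt16, Skint1, which keratinocytes express. Skint1 measured -1.38, -0.41 and -0.35 on aged replicates 1, 2 and 3. On young arrays its values ran from -1.30 upward, all below -0.41. Cd3e and Cd7 differed by 0.07 ± 0.10 and -0.40 ± 0.26 (limma adjusted p = 0.762 and 0.433). Cd3g was well above background on 1 aged and 2 young arrays. Langerhans cell markers were low on the array of 22 months, with a summed level of 4.63, against 10.8 and 18.4 on those of 25 months and 14.1 to 19.7 on young arrays. Of 8 fibroblast markers 6 were tested, 2 higher and 4 lower, against 36.4% of all genes lower. Col1a1 and Col3a1 passed, both lower, against 0.0353% of all genes in that direction. Neither passed with the replicate block. Col3a1 stood well above background on 0 aged and 3 young arrays, so it entered the test through the young arrays alone. No size is given for it. The summed fibroblast level was 22.9, 8.02 and 4.66 on aged replicates 1, 2 and 3 and 8.46 to 10.5 on young arrays. Dcn was the highest of these markers on every array and made up most of the sum at 22 months. It measured 4.34, 1.92 and 1.19 log2 units on aged replicates 1, 2 and 3, against 2.84, 1.95 and 2.02 on young replicates 1, 2 and 3. The part of these cell types in the keratin values was not tested.

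Regulators of the stress keratin genes, a list of transcription factors and growth factor signals, gave 0 of 31 past the threshold. Of the 31, 23 were higher and 8 lower, against 36.4% of all genes lower, with a median difference of 0.21. An unadjusted p under 0.05 in limma was reached by 3, against 17.7% of all genes. Tgfa, an EGF receptor ligand, differed by -0.61 ± 0.22, and Stat3 and Rela, transcription factors of cytokine signalling, by 0.35 ± 0.13 and 0.40 ± 0.16. Il22ra1, a receptor chain for interleukin-22, was at 0.30 ± 0.14 (limma adjusted p = 0.232 to 0.306 for the 4 genes). When aged replicate 1 was left out Hbegf alone of the 31 passed, at 1.29 (adjusted p = 0.0242), against 1.96% of all genes higher. Without the replicates numbered 1 of both groups 0 of the 31 passed. In that fit 15 had an unadjusted p under 0.05 in limma, against 3690 of all 14145 genes. Hbegf measured 1.17, 3.79 and 3.29 on aged replicates 1, 2 and 3 and 2.11, 2.25 and 2.37 on young replicates 1, 2 and 3, the same order as Krt16.

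Proteins that bind keratin filaments or anchor them differed little, with 0 of 17 past the threshold and a median difference of 0.05. An unadjusted p under 0.05 in limma was reached by 2, against 17.7% of all genes. The linker genes Plec and Dst were at 0.35 ± 0.11 and 0.36 ± 0.14, Dsp, which ties keratins to desmosomes, at 0.18 ± 0.12, and the chaperone gene Dnajb6 at 0.13 ± 0.14. Among the other epidermal keratins 0 of 12 passed, 5 were higher and 7 lower, against 36.4% of all genes lower. Here 1 had an unadjusted p under 0.05 in limma, against 17.7% of all genes, and the median difference was -0.03. Krt23 led this list at -0.48 ± 0.14 (adjusted p = 0.201). Of the simple epithelial keratins 0 of 4 passed, with 0 at an unadjusted p under 0.05. Krt18 differed by -1.56 ± 0.67, Krt7 by -0.53 ± 0.41, Krt19 by 0.13 ± 0.26 and Krt8 by 0.02 ± 0.60. Proliferation genes, which accompany stress keratins in hyperproliferative epidermis, were higher for 12 of 12 with a median of 0.50. Of all genes 36.4% were lower. In this list 0 passed while 8 had an unadjusted p under 0.05 in limma, against 17.7% of all genes. Aurka, Prc1, Plk1 and Cdk1, genes of mitosis, were at 0.72 ± 0.13, 0.83 ± 0.15, 0.57 ± 0.15 and 0.65 ± 0.18. The proliferation list deviated by 0.56, 0.59 and 0.33 on aged replicates 1, 2 and 3. Its deviations thus lay on the same side of the young mean, while Krt16 set aged replicate 1 apart from aged replicates 2 and 3.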

How the data were processed

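Each of the 6 samples was hybridised to its own 1-colour array. Feature Extraction 11.5.1.1 made the spot values, per the file headers. Their deposited processed signal is an intensity, not logged, with background removed and a spatial trend corrected, per the file headers. The authors' deposited table of log2 values was compared with the scaled scanner values, centred per probe, and correlated with them at 0.9999 or more on each array. Its column medians were -0.02 to 0.07. Control spots and 116 to 170 outlier spots per array were left out. Probes were named through RefSeq accessions and a GRCm38.p6 table, which named 28331 of 55681. The files use the mm9 build, so no coordinates are given.

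Log2 signals had the array's 75th percentile subtracted. Probes well above background on 3 or more of the 6 arrays entered the tests, and the brightest such probe stood for a gene. Groups were compared with limma 3.58.1 in R 4.3.3 (lmFit and eBayes, two-sided, Benjamini-Hochberg over all features, threshold 0.05), which also gave the 95% intervals. The fit was tested on simulated data with independent errors. It called 19 of 50 features with a true difference of 1 log2 unit, in each direction. At 3 log2 units it called 41 of 50 lower and 43 of 50 higher. There were 12 false calls among 25076 features. The members, gene lists and tests were chosen with earlier results of these data known. Named genes are the keratins, list genes past the threshold and otherwise up to 4 per list by unadjusted p, the 3 nearest profiles of each keratin, and Krt5, Krt14, Krt1 and Krt10. List genes that passed only without aged replicate 1, genes with the Krt16 pattern, Gm5478 and marker genes given singly were chosen after their values were seen. The files hold no mean signal under the name planned, so the normexp alternative used the deposited median signal intensity. The alternatives and their effect are given in the closing section.

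Same-numbered aged and young samples deviated together from their group means, with correlations across features of 0.413, 0.258 and 0.102. Each is over 0.1, so a fit blocked on the numbers is given beside the main fit, which has no block. Whether the numbers mark true pairs is not in the labels. The pairing comes from these correlations alone, and aged replicate 3 correlated more with young replicate 2, at 0.286. Both samples numbered 1 were also those with Ddx3y, Eif2s3y and Kdm5d above background, while Uty was above it on both and on young replicate 3.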

Additional observations from a re-analysis of the deposited data

How the results depend on the processing

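Each result was recomputed with another scaling, background correction, filter, probe rule or value table, with array weights or a block, and without single arrays. Genes past the threshold numbered 7 with quantile scaling, 21 with scaling to the array median, 3 with probes above background on all 6 arrays, 2 with probes above it on at least 1, 0 with the replicate block, 0 with the slide row as a block, 3298 with array weights, 215 without the replicates numbered 1 of both groups, and 0 to 810 when 1 array was left out, against 11. At an unadjusted p under 0.05 the replicate block gave 2714, the slide row 859 and the fits without 1 array that called 0 gave 1324 to 2413. With array weights 3 of the 5 keratins passed (Krt6a at -0.90, Krt17 at -0.59 and Krt75 at -2.01), as did 51 list genes, against 3298 of all 14145 genes. Leaving out 1 array gave 0 to 2 keratins and 0 to 22 list genes past the threshold, and leaving out the replicates numbered 1 gave 6 list genes. Krt6a ranged from -1.17 to -0.85, Krt6b from -0.71 to -0.36, Krt17 from -0.84 to -0.30, Krt75 from -1.88 to -0.90, Krt16 from -0.51 to 0.95 and the second Krt6b probe from -0.24 to 3.85 when 1 array was left out. The sign of Krt16 turned with quantile scaling (-0.078) and with normexp (-0.016), and that of Krt6b with the mean over its probes (0.35). The slide row, which rests on 1 young array, gave -0.69 for Krt6a and -1.09 for Krt75. Outside the ranges above, Krt6b was -0.24 with array weights and -0.33 with the slide row, and Krt16, inside its range, was 0.86 with array weights. With the replicate block the calls of all 11 genes were lost, Col1a1 and Col3a1 among them. No call on a keratin changed, and no count past the threshold for another gene list did. Some counts at an unadjusted p under 0.05 in limma moved, such as 8 against 7 inner root sheath genes and 7 against 8 proliferation genes. The number of arrays limits all of these values, and the cause of the changes was not tested.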
